A study of Mus musculus with 12 samples.

Results

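The Bcl2 family decides whether a cell commits to apoptosis through its mitochondria. Antiapoptotic members (Bcl2, Bcl2l1, Bcl2l2, Mcl1) hold the pore-forming effectors Bax and Bak1 in check, and BH3-only members (Bid, Bad, Bik, Bcl2l11), so called because they share only the third Bcl2 homology region, relieve that hold or activate the effectors. In the mammary gland the family is known for its part in the loss of milk-producing epithelium after weaning and in the survival of tumor cells downstream of receptor tyrosine kinases. Here the RNA of these 10 genes was compared between ShcA-null mammary tumors of the mouse and pooled RNA of NIC tumors. The members were taken by symbol from the array design, which gave 20 probes on 47 spots of each array, out of 41174 gene probes. All 20 probes passed the filter on dim probes, and the fit across the array tested 20395 genes.

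There were 8 ShcA-null tumors on 12 two-colour Agilent arrays, each hybridised with the RNA of 1 tumor and of the same pooled NIC tumor RNA. The NIC transgene carries activated Neu, the rat form of ErbB2, and Cre recombinase on 1 transcript in the mammary epithelium, and the labels do not say how Shc1 was removed or in which cells. ShcA, the product of Shc1, is the adaptor that links such receptors to Ras. The labels give no age or strain, no number of tumors in the pool, and no deleted part of Shc1. Each tumor had a first array with its RNA in Cy5, and swapped arrays with the tumor RNA in Cy3 were labelled for tumors 1, 2, 3 and 4. All 9 luminal epithelial markers tested, among them Krt8, Krt18 and Epcam, were well above background on 12 of 12 arrays in the tumor and in the pool RNA. In bulk RNA, fewer cells of a type and less RNA per cell cannot be told apart.

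The swapped arrays went against their labels. Over 30838 kept probes, the swapped array labelled tumor 2 correlated at 0.82 with the first array of tumor 3 and at 0.14 with that of tumor 2. The swapped array labelled tumor 3 matched tumor 4 best (0.39, against 0.13 with tumor 3), the one labelled tumor 4 matched tumor 8 best (0.68, against 0.29 with tumor 4), and the one labelled tumor 1 matched tumor 1 (0.44). Shc1 showed the same pairing of tumor 3: its 1 kept probe stood at -2.05 on the first array of tumor 3 and at -2.22 on the swapped array labelled tumor 2, and between -0.03 and 0.74 on the other 10 arrays. Whether that probe lies in the deleted part is not given. Values are therefore shown for each first array, where each tumor appears once. The mean over 8 tumors averages both arrays of a labelled tumor, and beside it stand the first arrays alone and a dye-term fit over the 12 arrays, in which each swapped array shared a block with its best match. If the best matches are right, the averages of labelled tumors 2, 3 and 4 mix tumors. The 8 values are then not independent, which their p-values do not take into account. The first arrays of tumors 6 and 7 had the widest ratios, with an SD over kept probes of 1.29 and 1.11 against 0.51 to 0.98 on the other 10 arrays.

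The pool is 1 control sample, so each mean log2 ratio of tumor over pool was tested against 0, which leaves out the spread among control tumors. The labels do not say that the 8 tumors came from separate animals, and the p-values measure only the spread between these samples, which may be technical. By limma, with a Benjamini-Hochberg adjusted p under 0.05 over all genes, 1 of the 10 members was called, Bcl2l2, lower in the ShcA-null tumors. Over all genes 17.2% were called (6.58% higher and 10.6% lower), so 1 of 10 is no more than the share across the array. At an unadjusted p under 0.05 there were 4 of the 10: Bcl2l1, Bcl2l2, Bak1 and Bad, the last on a probe that may not report it. No share over all genes is given for the unadjusted threshold, here or below. Such counts therefore cannot be read as an excess over the array. The first arrays alone called 2 members, Bcl2l1 and Bcl2l2, against 21.5% of all genes, and the fit with the dye term called none, against 8.11% of all genes (3 members at an unadjusted p under 0.05). Without tumors 6 and 7, 2 members were called, Bak1 and Bcl2l2, against 24.7% of all genes. The median of the 10 mean log2 ratios was -0.14, against -0.02 over all genes tested. Of the 10 member means, 4 were positive and 6 negative.

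**Figure D1:**
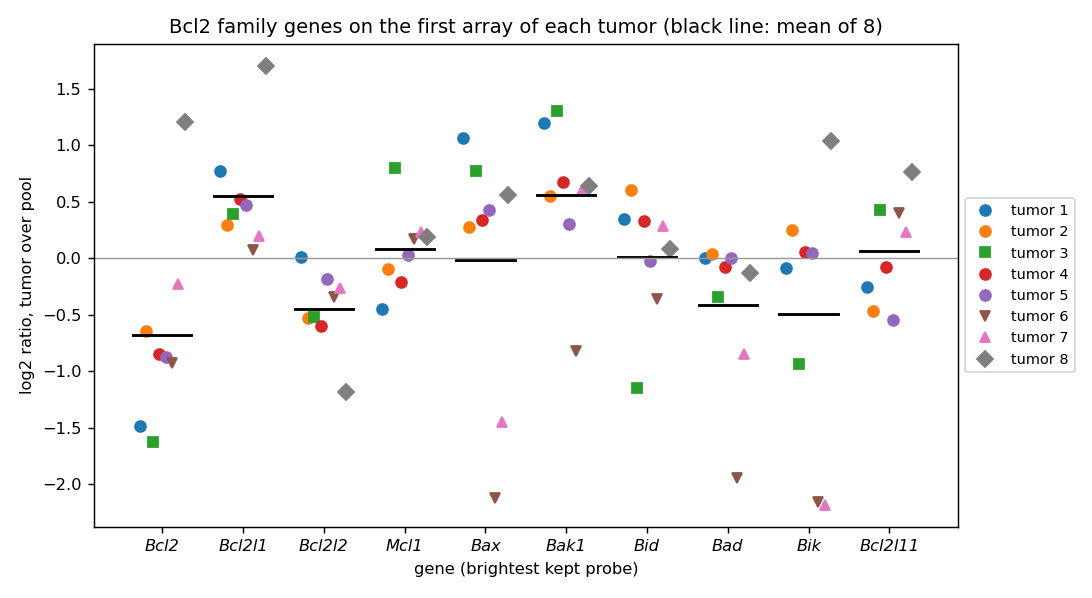
Log2 ratio of tumor over pool (vertical axis) for the brightest probe of each of the 10 genes (horizontal axis) on the first array of each of the 8 ShcA-null tumors. Each symbol is 1 tumor and the black line the mean of 8. Bcl2l1 lies above 0 in all 8, tumors 6 and 7 lie far below the others for Bax and Bik, and tumor 8 is apart for Bcl2, Bcl2l1 and Bcl2l2.

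The probes matter for what follows, because 7 of the 10 genes had several and 5 of these had probe means of both signs. The 5 probes below, 60 bases each, are shown because each lies in coding sequence and, except for Bax, which had no other probe, gave a different value from the brightest probe of its gene. They are printed 5′ to 3′ from the array design, with mm7 coordinates from the deposited files. The Bcl2 and Bak1 probes read through BH1, a homology region of the groove that binds BH3 helices, and the Bcl2l11 probe starts at the end of its BH3 region.
Bcl2 A_51_P380013 (chr1:106612249-106612308, minus strand): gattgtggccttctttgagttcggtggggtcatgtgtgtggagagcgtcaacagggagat
Bcl2l1 A_52_P510877 (chr2:152570306-152570365, minus strand): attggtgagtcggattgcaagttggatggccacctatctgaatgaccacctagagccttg
Bax A_51_P254541 (chr7:41641827-41641982, minus strand): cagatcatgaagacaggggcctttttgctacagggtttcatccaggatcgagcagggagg
Bak1 A_52_P225207 (chr17:25205887-25205946, minus strand): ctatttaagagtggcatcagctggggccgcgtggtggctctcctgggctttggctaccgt
Bcl2l11 A_51_P484880 (chr2:127888010-127899105, plus strand): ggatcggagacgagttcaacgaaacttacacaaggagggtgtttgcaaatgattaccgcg
The Bax probe covers 156 bases of genome and the Bcl2l11 probe 11096, so both join exons across an intron. They detect spliced RNA.

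**Figure D2:**
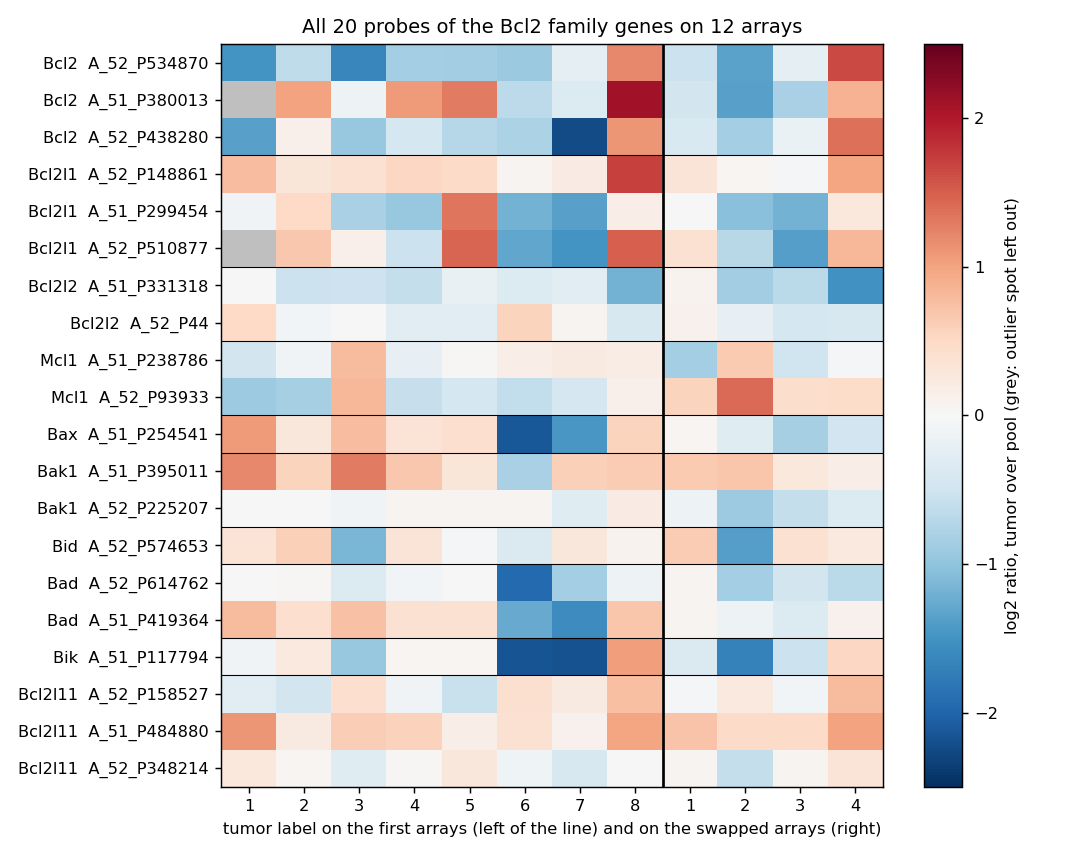
Log2 ratio of tumor over pool (colour) for all 20 probes of the 10 genes (rows) on the 8 first arrays (left of the line) and the 4 swapped arrays (right), by labelled tumor. Red is higher in the tumor, blue higher in the pool, and grey an outlier spot left out. Rows of 1 gene often differ, and the column of the swapped array labelled tumor 4 resembles that of the first array of tumor 8.

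Among the antiapoptotic members, Bcl2l2 (Bcl-w) was the 1 gene called, on its brighter probe and lower than the pool. It sequesters BH3-only proteins at the outer mitochondrial membrane. Its brighter probe (A_51_P331318, chr14:49754681-49754740) read 0.01, -0.53, -0.52, -0.60, -0.18, -0.35, -0.26 and -1.19 on the first arrays of tumors 1 to 8. Tumor 1 was level with the pool, tumor 8 was lowest, and the other 6 lay between them on the low side. The swapped arrays labelled tumors 1 to 4 read 0.10, -0.88, -0.67 and -1.52, again lowest on the array that matched tumor 8. Over 8 tumors the mean was -0.54 ± 0.43 (SD, n = 8; 95% interval -0.87 to -0.20), 1.45-fold lower, with 7 of 8 tumors below the pool (limma adjusted p = 0.0373, exact two-sided sign-flip permutation p = 0.0156). The first arrays alone gave -0.45 (limma adjusted p = 0.0397), and the fit with the dye term gave -0.54 (limma adjusted p = 0.0592), just above the threshold of 0.05. Within the slide of tumors 1 to 4 it was -0.41 (limma adjusted p = 0.152) and within that of tumors 5 to 8 -0.50 (limma adjusted p = 0.288). The call was lost without tumor 2 (-0.51, limma adjusted p = 0.0809), 3 (-0.53, 0.0803), 4 (-0.46, 0.0968), 7 (-0.57, 0.0536) or 8 (-0.44, 0.0827). It was also lost when arrays were averaged by best match. The second probe (A_52_P44), 2829 bases away and much dimmer, did not show it. It read 0.49, -0.06, 0.01, -0.26, -0.26, 0.56, 0.06 and -0.40 on the first arrays, and averaged -0.05 ± 0.33 (SD, n = 8; limma adjusted p = 0.805). With median centring in place of loess the brighter probe stood at -0.09 (limma adjusted p = 0.808), with Feature Extraction's processed signals at -0.46 (limma adjusted p = 0.105) and in the deposited value table at -0.50 (limma adjusted p = 0.0746). The call thus rests on 1 probe and was not made under these 3 scalings.

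Bcl2l1 encodes the long antiapoptotic Bcl-xL and, by alternative splicing, the short proapoptotic Bcl-xS. Its brightest probe (A_52_P148861, chr2:152521752-152521811) read 0.77, 0.30, 0.39, 0.53, 0.47, 0.07, 0.20 and 1.70 on the first arrays of tumors 1 to 8. Every tumor was above the pool, with tumor 8 highest by far. The swapped arrays, in the order of their labels, read 0.31, 0.04, -0.05 and 0.98. The mean was 0.51 ± 0.53 (SD, n = 8), 1.42-fold, with 8 of 8 tumors above the pool. It missed the threshold over all genes (limma adjusted p = 0.0771), although the exact sign-flip permutation p was 0.00781, the smallest that 8 tumors allow. The first arrays alone passed (0.55, limma adjusted p = 0.0481), as did median centring (0.82, limma adjusted p = 0.0188), and the fit with the dye term did not (0.30, limma adjusted p = 0.268). The dye effect on this probe was 0.51, higher with the tumor in Cy5 (limma adjusted p = 0.000182). Labelled tumors 5 to 8 were measured with the tumor in Cy5 only. The count of 8 of 8 and the sign-flip p do not take this into account. At the other end of the gene, 49099 bases upstream, the probes were not above the pool in every tumor: A_51_P299454 averaged -0.34 ± 0.87 and A_52_P510877 0.01 ± 1.13 (SD, n = 8). Both were low in tumors 6 and 7 (-1.19 and -1.36, and -1.31 and -1.49) and high in tumor 5 (1.33 and 1.46), and A_52_P510877 was highest in tumor 8, like the brightest probe, with 0.82 on the swapped array that matched it. In the tumor RNA they were well above background on 10 and 11 of 12 arrays only. The files do not state which splice form each probe reports.

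Bcl2 itself, the founding member, was not called. Its brightest probe (A_52_P534870, chr1:106438098-106438157) read -1.49, -0.64, -1.63, -0.85, -0.88, -0.93, -0.23 and 1.20 on the first arrays of tumors 1 to 8. Tumors 1 to 7 were below the pool and tumor 8 was well above it. The swapped arrays labelled tumors 1 to 4 read -0.53, -1.33, -0.22 and 1.66, the last being the array that matched tumor 8. Averaged over labelled tumors the mean was -0.42 ± 0.82 (SD, n = 8; limma adjusted p = 0.286). It was -0.68 with the first arrays alone (limma adjusted p = 0.108) and -0.39 with the dye term (limma adjusted p = 0.388), and no call was made. A probe near the start of the gene (A_52_P438280) averaged -0.49 ± 0.98 and was also highest in tumor 8, at 1.10. The BH1 probe printed above, 174151 bases from the brightest one, averaged 0.29 ± 1.03 (SD, n = 8). On its first arrays it read 1.01, -0.13, 1.06, 1.31, -0.65, -0.35 and 2.10 in tumors 2 to 8, and the swapped arrays read -0.46, -1.35, -0.81 and 0.86. It had the largest dye effect of the 20 probes, 1.41 higher with the tumor in Cy5 (limma adjusted p = 1.96e-05). The brightest probe and A_52_P438280 had dye effects in the other direction, -0.59 and -0.42 (limma adjusted p = 0.00223 and 0.0326).

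Mcl1 encodes a short-lived antiapoptotic protein that is needed by the mammary epithelium. It was not called. The brighter probe (A_51_P238786, chr3:95536882-95536941) read -0.45, -0.09, 0.80, -0.21, 0.03, 0.17, 0.23 and 0.19 on the first arrays of tumors 1 to 8, and averaged 0.03 ± 0.31 (SD, n = 8; 95% interval -0.23 to 0.30; limma adjusted p = 0.864), against 0.60 with median centring (limma adjusted p = 0.104). Tumor 3 was the 1 tumor clearly above the pool, and the swapped array that matched it read 0.65. The second probe (A_52_P93933) averaged -0.08 ± 0.42 (SD, n = 8), and 0.41 with median centring (limma adjusted p = 0.0806). Its dye effect was -0.86 (limma adjusted p = 0.00014). In the best-matching pairs its first and swapped arrays read -0.91 and 0.55 in tumor 1 and -0.57 and 0.44 in tumor 4, but 0.84 and 1.42 in tumor 3 and 0.13 and 0.45 in tumor 8, above the pool with either dye.

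The effector Bax, which opens the outer mitochondrial membrane, split the tumors. Its 1 probe read 1.06, 0.28, 0.77, 0.34, 0.43, -2.12, -1.45 and 0.55 on the first arrays of tumors 1 to 8. Tumors 6 and 7 were far below the pool and the other 6 above it, with no value in between. The swapped arrays labelled tumors 1 to 4 read 0.04, -0.30, -0.83 and -0.48. In the 4 best-matching pairs the first array exceeded the swapped one by 1.02, 1.07, 1.17 and 1.04, a fitted dye effect of 1.03 (limma adjusted p = 6.29e-05). This effect is the whole difference between the dye orientations. Averaged over both orientations of the best-matching pairs, Bax stood at 0.55, 0.23, -0.25 and 0.04 in tumors 1, 3, 4 and 8. The mean over labelled tumors was -0.27 ± 0.99 (SD, n = 8; limma adjusted p = 0.565), and the dye term moved it to -0.53 (limma adjusted p = 0.291). Without tumors 6 and 7 it was 0.24 (limma adjusted p = 0.189). Within the slide of tumors 1 to 4 the first arrays gave 0.61 (limma adjusted p = 0.0979), and within that of tumors 5 to 8 -0.65 (limma adjusted p = 0.496).

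Bak1, the second effector, was higher in most tumors on 1 of its 2 probes. Its brighter probe (A_51_P395011, chr17:25204734-25204793) read 1.19, 0.55, 1.30, 0.67, 0.30, -0.82, 0.60 and 0.64 on the first arrays of tumors 1 to 8. Tumor 6 alone was below the pool. The 4 swapped arrays read 0.65, 0.70, 0.27 and 0.16, all above it. The mean of 0.43 ± 0.54 (SD, n = 8) missed the threshold (limma adjusted p = 0.125, exact sign-flip permutation p = 0.0703), but without tumor 6 it was 0.61 (limma adjusted p = 0.00438), and without tumors 6 and 7 also 0.61 (limma adjusted p = 0.00605). With the dye term it was 0.31 (limma adjusted p = 0.31). The BH1 probe, 1153 bases away, averaged -0.12 ± 0.23 (SD, n = 8; limma adjusted p = 0.465) and stayed between -0.30 and 0.21 on the first arrays. On the swapped arrays it read -0.12, -0.91, -0.60 and -0.34, all below the pool. The dye effect was 0.48 on the brighter probe and 0.54 on the BH1 probe (limma adjusted p = 0.000647 and 0.000105).

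**Figure D3:**
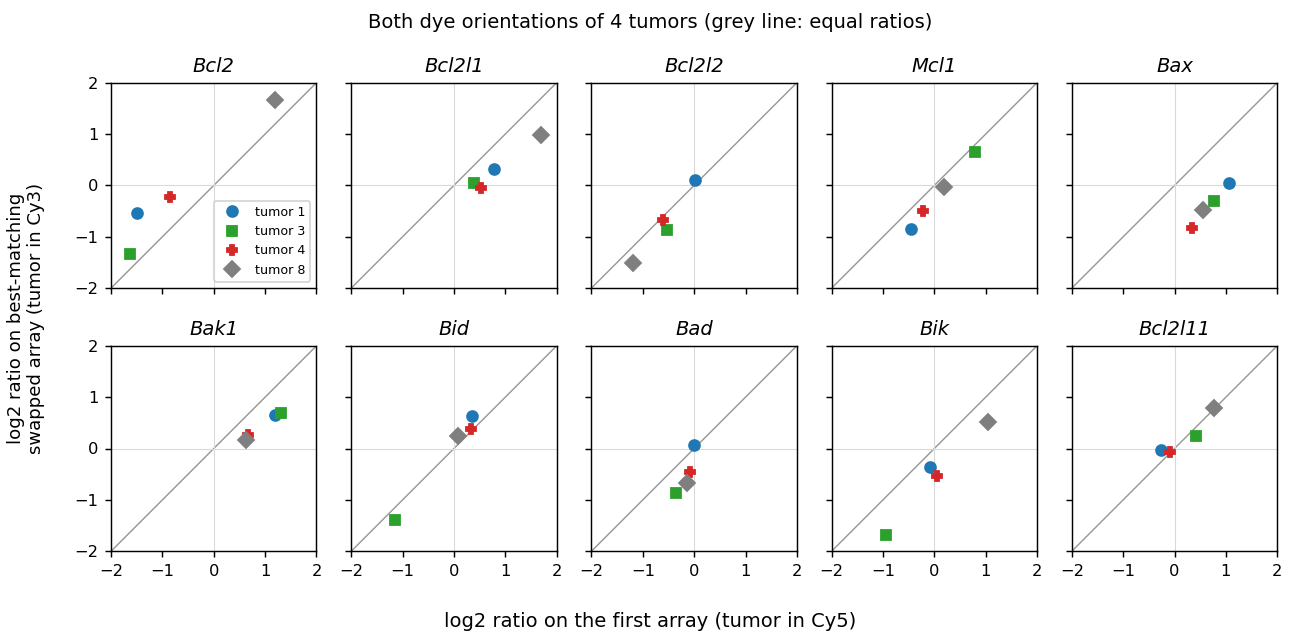
Log2 ratio of tumor over pool on the first array (horizontal axis, tumor in Cy5) against the swapped array that matches it best (vertical axis, tumor in Cy3) for 4 tumors, 1 panel per gene, brightest probe. The grey line marks equal ratios. Points of Bax lie below the line by 1.02 to 1.17, while those of Bid and Bcl2l11 lie near it.

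Dye orientation moved many of the probes. Across the 20 member probes the fitted dye effect was positive on 15, with a median of 0.23, against -0.05 over all kept probes. It was called on 62.2% of all kept probes. All swapped arrays were on 1 slide of their own, so an effect of slide cannot be told apart from that of dye.

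None of the 4 BH3-only members was called on its brightest probe by limma, and 1 had an unadjusted p under 0.05. Bik, which acts at the endoplasmic reticulum and mitochondria and was named as a Bcl2-interacting killer, read -0.09, 0.25, -0.94, 0.05, 0.05, -2.15, -2.18 and 1.04 on the first arrays of tumors 1 to 8 (A_51_P117794, chr15:83625939-83625998). Tumors 6 and 7 were again lowest, tumor 8 highest, and 4 tumors were within 0.25 of the pool. The swapped arrays read -0.35, -1.69, -0.53 and 0.52, lowest on the array that matched tumor 3. The mean was -0.58 ± 1.13 (SD, n = 8; 95% interval -1.37 to 0.21; limma adjusted p = 0.275), and without tumors 6 and 7 it was -0.05 (limma adjusted p = 0.89).

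Bad, which binds Bcl2 and Bcl-xL and is inactivated when survival kinases phosphorylate it, had a probe on each strand. The brighter one (A_52_P614762, chr19:6770968-6771027, minus strand, accession AK029400) lies 8976 bases from the probe of the RefSeq transcript NM_007522 (A_51_P419364, chr19:6761992-6762051, plus strand). Whether the minus-strand probe reports Bad is uncertain. The plus-strand probe read 0.79, 0.41, 0.73, 0.38, 0.39, -1.26, -1.57 and 0.69 on the first arrays of tumors 1 to 8, above the pool in 6 tumors and far below it in tumors 6 and 7. Its mean was -0.09 ± 0.84 (SD, n = 8; limma adjusted p = 0.836). Without tumors 6 and 7 the mean turned to 0.35 (limma adjusted p = 0.0309). Its dye effect was 0.68 (limma adjusted p = 0.000502), and the swapped arrays read 0.08, -0.12, -0.35 and 0.11. The minus-strand probe read 0.00, 0.04, -0.35, -0.07, 0.00, -1.95, -0.85 and -0.13 on the first arrays and averaged -0.51 ± 0.65 (SD, n = 8; limma adjusted p = 0.121).

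Tumors 6 and 7 thus had the lowest values of the plus-strand Bad probe and of Bax and Bik, and the upstream Bcl2l1 probes, not above background on every array, were also low there. Such low values were not limited to the family. The markers Acta2 (-2.88 and -2.56) and C1qa (-3.29 and -3.03) were as low in tumors 6 and 7. The medians of their basal and macrophage lists were above 0 there (1.08 and 0.91, and 0.36 and 0.06). In tumor 7 the median log2 ratio was 3.54 over 6 B cell markers and 3.17 over the 10 T cell markers with a value there, against 0.17 to 0.86 and 0.09 to 0.66 in the other tumors, and the adipocyte median was 1.77. Of the 11 T cell markers tested, 8 were well above background in the tumor RNA on 12 of 12 arrays and the other 3 on 7, 11 and 11. One, Cd3e, had no value in tumors 5 to 8 and was called lower over the other 4 (limma adjusted p = 0.0315). In tumor 6 the B and T cell medians were 0.20 and 0.50, within the range of the remaining tumors. The share of probes well above background in the tumor RNA was 63.1% in tumor 6 and 68.0% in tumor 7, against 67.9% to 77.2% on the other 10 arrays. Median intensity of the tumor RNA was lowest on these arrays, at 525 and 532 against 560 to 1144 on the other 10. What part these traits of the arrays and tumors had in the Bax, Bad and Bik values was not tested.

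Bid, which caspase-8 cleaves to link death receptors to mitochondria, was not called. It read 0.34, 0.61, -1.15, 0.33, -0.03, -0.36, 0.28 and 0.08 on the first arrays of tumors 1 to 8 (A_52_P574653, chr6:120918747-120918806). Tumor 3 alone was clearly low, and the swapped array that matched it read -1.39. The mean was -0.00 ± 0.34 (SD, n = 8; 95% interval -0.29 to 0.28; limma adjusted p = 0.987), and 0.49 with median centring (limma adjusted p = 0.0871). Tumor 3, the tumor with the low Shc1 ratio, also had the lowest Bid and the highest Mcl1 of the first arrays, as single values with no test. Averaged over labelled arrays, tumor 3 had marker medians of 1.72 for fibroblasts, 2.04 for skeletal muscle, 1.41 for basal cells and 1.03 for macrophages, and tumor 2, whose swapped array matched tumor 3, had 1.09, 2.59, 1.05 and 1.09. Their part in the Bid and Mcl1 values was not tested.

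Bcl2l11 encodes Bim, a BH3-only protein that growth factor signalling keeps low. Its brightest probe (A_52_P158527, chr2:127903168-127903227) read -0.26, -0.47, 0.43, -0.08, -0.55, 0.40, 0.23 and 0.76 on the first arrays of tumors 1 to 8, with 4 tumors on each side of the pool. It averaged 0.14 ± 0.40 (SD, n = 8; limma adjusted p = 0.517). The exon-joining probe A_51_P484880 printed above read 1.11, 0.22, 0.61, 0.57, 0.16, 0.38, 0.10 and 0.99 on the same arrays. It was much dimmer than the brightest probe, with a mean log2 intensity of 9.66 in the tumor and 9.10 in the pool RNA, against 13.46 and 13.35. All 8 tumors were above the pool on it, and so were the 4 swapped arrays, at 0.70, 0.48, 0.47 and 1.00. That probe averaged 0.53 ± 0.34 (SD, n = 8; limma adjusted p = 0.0239 over all probes) and was called higher, at 0.52 on the first arrays alone (limma adjusted p = 0.0321) and at 0.45 with the dye term (limma adjusted p = 0.0968). Leaving out tumor 1, 3, 4 or 8 took its limma adjusted p to 0.055, 0.0564, 0.071 and 0.0596. It was the 1 member probe called higher, beside Bcl2l2 A_51_P331318 called lower, so 2 of 20 probes were called, against 15.3% of all kept probes. The third probe (A_52_P348214, chr2:127869853-127870534), which also covers more genome than its 60 bases, averaged -0.04 ± 0.23 (SD, n = 8). Bim is made in several splice forms, and which of them each probe sees is not given in the files.

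**Figure D4:**
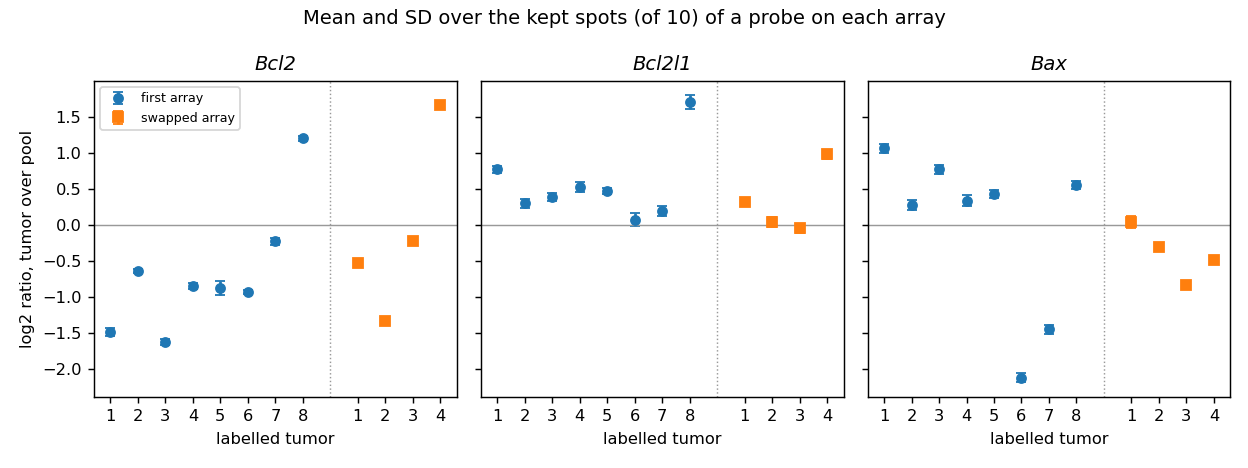
Mean log2 ratio of tumor over pool (vertical axis) over the kept spots (6 to 10 of 10) of 1 probe on each array, with the SD over these spots as error bars, for Bcl2, Bcl2l1 and Bax. Circles are first arrays and squares swapped arrays, by labelled tumor. Spot SDs run from 0.02 to 0.10, and the spread between first arrays is wider for all 3 genes.

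The probes of 3 genes, Bcl2, Bcl2l1 and Bax, were printed 10 times on each array, and 6 to 10 of these spots were kept. The SD over the kept spots had a median of 0.037 for Bcl2, 0.062 for Bcl2l1 and 0.061 for Bax. Between first arrays the SD was 0.88, 0.51 and 1.13 for the same genes. The spot SD leaves out the error of labelling, hybridisation, dye and slide, so these values do not separate tumors from arrays.

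Around the family, the BH3-only gene Pmaip1 (Noxa), which neutralises Mcl1, was higher in all 8 tumors. Its log2 ratios over labelled tumors 1 to 8 were 0.65, 1.24, 1.30, 0.86, 0.21, 1.98, 1.86 and 0.85, a mean of 1.12 ± 0.60 (SD, n = 8; limma adjusted p = 0.00634), 2.17-fold, and 1.10 with the dye term (limma adjusted p = 0.0063). Bnip3, a hypoxia-induced relative that also acts in mitophagy, was lower in all 8, at -1.36, -2.41, -1.75, -0.74, -0.83, -4.45, -1.14 and -1.24. Its mean was -1.74 ± 1.22 (SD, n = 8; limma adjusted p = 0.0146), 3.34-fold lower, and -1.07 with median centring (limma adjusted p = 0.0526). These were the 2 called genes of 11 tested in the list of other family members, a share near the 17.2% called over all genes. The median of the list was 0.27.

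Downstream of the mitochondria, 1 of 18 genes of the apoptosome, release factors and caspases was called higher and 4 lower, against 6.58% and 10.6% over all genes. Casp8, the initiator caspase of death receptors, stood at 0.54 ± 0.28 (SD, n = 8; limma adjusted p = 0.0123), above the pool in 8 of 8 tumors. Lower were Casp12 (-0.64), an endoplasmic reticulum caspase, the executioner Casp6 (-0.45), the mitochondrial channel gene Vdac2 (-0.39), and Casp9 (-0.32), the initiator that the apoptosome activates. With the dye term these 4 stood at -0.53, -0.40, -0.18 and -0.29, and none was called (limma adjusted p = 0.179, 0.0665, 0.562 and 0.133). With median centring they stood at -0.19, 0.01, 0.13 and -0.00, also without a call. None of 7 inhibitor of apoptosis genes tested was called by limma, while 4 had an unadjusted p under 0.05.

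Among 12 genes of death receptors, ligands and adaptors, 1 was called higher and 1 lower, against 6.58% and 10.6% over all genes. By limma, 9 had an unadjusted p under 0.05. The ligand gene Tnfsf10 (TRAIL) was higher in 8 of 8 tumors (0.77 ± 0.47, SD, n = 8; limma adjusted p = 0.0125). Cflar, the inhibitor of caspase-8, was called lower (-0.40, limma adjusted p = 0.0341) on the brightest of its 6 probes, and none of the other 5 was called (-1.03 to 0.16). The brightest probe stood at -0.47 once dye was a term (limma adjusted p = 0.128) and at 0.01 with median centring (limma adjusted p = 0.973). Of 26 upstream regulators 3 were called higher and 2 lower, near the 17.2% called over all genes. Myc, which sensitises cells to apoptosis, stood at 0.61 ± 0.31 (SD, n = 8; limma adjusted p = 0.00914), with its other probes at 0.81 and 0.44. Foxo1, a factor that activates Bcl2l11, stood at -0.57 ± 0.23 (SD, n = 8; limma adjusted p = 0.00633) and its second probe at -0.64, but at -0.04 with median centring. The other 3 depended on the probe: Trp53 at 0.72 (second probe 0.19), the 14-3-3 gene Ywhae at 0.85 (others -0.34 and -0.55) and Creb1 at -1.27 (others 0.29 and 0.38). The brighter Trp53 probe stood at 0.17 with the dye term (limma adjusted p = 0.77).

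Among the genes whose ratios were closest to those of Bcl2l2 over the 12 arrays, by root mean square difference, were Cdkn2c (0.25), an inhibitor of cyclin-dependent kinases, and Triap1 (0.29), named as an inhibitor of apoptosis regulated by p53. The median distance was 0.94 over the 16376 genes compared. The mean log2 ratio was -0.41 for Cdkn2c (limma adjusted p = 0.0827, not called) and -0.59 for Triap1 (limma adjusted p = 0.00428). Means near that of Bcl2l2 follow from this way of choosing the genes.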

How the data were processed

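RNA of 8 tumors and 1 pool was hybridised on 12 two-colour arrays, 500 ng of total RNA per labelling and 1 round of amplification, per the labels. Agilent Feature Extraction 9.5.3.1 quantified the spots, per the file headers. The authors deposited mean foreground and median background intensity per channel, not normalized, a log10 ratio of red over green of processed signals, and other values of 0 or 1 that mark spots above background or outliers. A table of log2 values was deposited too, whose normalization and centring are not given in the sources used here. Its columns ran tumor over pool (slopes of 0.758 to 0.797 on first and -0.748 to -0.715 on swapped arrays against the scanner ratio) and had medians of -0.0715 to 0.137.

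Intensities were corrected with normexp (offset 50) and loess within array in limma 3.58.1 (R 4.3.3, with data.table at version 1.17.8), with control spots at weight 0 and outlier spots left out (0.47% to 13.7% of an array). The first array of tumor 1 lost most, among them Bcl2 A_51_P380013 and Bcl2l1 A_52_P510877. Ratios were turned to tumor over pool, spots of a probe and both arrays of a labelled tumor were averaged. Kept probes had at least 1 array with a channel well above background in 4 or more tumors, and the brightest kept probe stood for a gene. limma's lmFit and eBayes tested the mean of 8 tumors against 0, with Benjamini-Hochberg adjustment over all genes, or over all probes where a single probe other than the brightest is given. The scripts were tested on simulated data. Alternatives changed background correction, scaling, source, filter, dye, pairing, slide, probe choice and tumors. The array number limits the precision. Members, gene lists and tests were chosen with earlier results of these data known. Named genes are all members, the called genes of the lists outside the cell type markers (at most 6 a list), Shc1 and the 3 genes closest to the called member, of which 1 is not reported here. Marker genes named beside them were chosen after their values were seen.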

Additional observations from a re-analysis of the deposited data

Results flagged for a closer look

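Of the 20 member probes, 4 had 1 tumor far from the other 7 (the gap to the nearest tumor over the whole range exceeded Dixon's 95% critical value for 8 samples). Chance gives about 1 in 20 such groups of 8 like values, but these values differ in their number of arrays. The share over all kept probes is not given, so 4 of 20 cannot be read as particular to the family. Bcl2l1 A_52_P148861 stood at 1.70 in tumor 8, with the next highest at 0.75. Bak1 A_51_P395011 stood at -0.82 in tumor 6, with the next lowest at 0.30. Bad A_52_P614762 stood at -1.95 in tumor 6, with the next lowest at -0.85. Mcl1 A_51_P238786 stood at -0.65 in tumor 1, with the next lowest at -0.13. That value averages by array label: on the first arrays alone Mcl1 in tumor 1 stood at -0.45, with the next lowest at -0.21 and the highest at 0.80, and with the best-matching arrays averaged it stood at -0.65, with the next lowest at -0.35. The values of tumor 1 average 2 arrays, and those of tumors 6 and 8 are 1 array each.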

How the results depend on the processing

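Counts of called genes, members and member probes (3498, 1 and 2 by limma) were recomputed under 26 other settings, 4 of them chosen after seeing the data (the best match among 8 tumors as a block or average, without tumors 6 and 7, and the 4 tumors with both dyes). Genes fell to 1638 on swapped arrays only, 1845 with a dye term and best matches among tumors 1 to 4, 1640 with best matches among 8, 2240 when arrays were averaged by best match, 926 and 8 within the slides of tumors 1 to 4 and 5 to 8, and 2 with the 4 tumors of both dyes. Members called were 0 in each of these, with Feature Extraction's processed signals, with the deposited value table and with the mean of all probes (at an unadjusted p under 0.05, 0 within the slide of tumors 5 to 8 and 1 to 5 in the others). They were 2 on first arrays (Bcl2l1 and Bcl2l2), 2 without tumors 6 and 7 (Bak1 and Bcl2l2), and 3 with the labelled tumor as a block (Bcl2l1, Bcl2l2 and Bak1). Member probes called were 0 with the dye term under either best match, within both slides and with both dyes, 1 with processed signals, the value table, swapped arrays or averaging by best match, and 5 without tumors 6 and 7, where Bad A_51_P419364 stood at 0.35 in place of -0.09. Leaving out 1 tumor gave 1961 (without tumor 4) to 4539 (without tumor 6) genes, with 2235 without tumor 8, 0 to 2 members and 0 to 3 probes. Without tumor 2, 3, 4, 7 or 8 Bcl2l2 was not called. Bcl2l2 was called in 10 of the 26 settings and Bcl2l11 A_51_P484880 in 16 of 25, with the same sign in all of them. Median centring moved the median of all genes from -0.02 to 0.16 and the share of higher calls from 38.4% to 71.1%, and called Bcl2l1 in place of Bcl2l2. The cause of these losses was not tested. Settings that leave tumors out also rest on fewer tumors, and the part of this was not tested either.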
